A study of Rattus norvegicus with 25 samples.

Results

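The genes described here are 37 genes of microglia and of the complement system, given as a list of names. Rows whose gene name equaled a listed name, with upper and lower case treated alike, were taken from the tables of both brain regions. All 37 names were found in both regions, and they held 38 of 26312 gene identifiers, because 36 names had 1 identifier each and Lyz2 had a second one written LYZ2 (Lyz2 is ENSRNOG00000005825 and LYZ2 is ENSRNOG00000034139). These lysozyme identifiers carry the same gene name, and how reads were divided between them is uncertain.

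Adult male Sprague-Dawley rats of wild-type genotype stayed in the home cage and were given a fresh cage (control), or were immobilized once for 3 h with exposure to fox urine, a predator scent, and all were put through behavioral tests before tissue was taken. Stressed rats with a low composite score of anxiety-like behavior (stress-low, scores 0 to 2) or a high score (stress-high, scores 13 to 15) were chosen for sequencing, with controls scoring 0 to 6, and the left basolateral amygdala (BLA) and left dorsal dentate gyrus (DG) were punched on day 9. Bulk poly-A RNA gave 25 libraries, 13 from the BLA (7 control, 3 stress-low, 3 stress-high) and 12 from the DG (6 control, 3 stress-low, 3 stress-high), and tissue of both regions came from 11 of the animals. Stressed rats were housed apart for some days after the stressor, so stress and housing cannot be told apart, and punches pooled from several sections hold all cell types of the tissue.

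Microglia are the resident macrophages of the brain. In the undisturbed brain they carry receptors that sense neurons and nucleotides, such as Cx3cr1 and P2ry12, depend on the growth factor receptor Csf1r, and make the 3 chains of C1q, which opens the classical complement cascade and can tag synapses for removal. When microglia react to damage, homeostatic receptors typically decline while phagocytic, lysosomal, antigen-presenting and cytokine genes increase. In bulk tissue, fewer cells of a type and less RNA per cell cannot be told apart.

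Total expected counts, the reads that the quantification assigned to genes, were 12709493 to 22801247 in the BLA and 11656439 to 19477932 in the DG. One control per region stood apart on the first principal component. The BLA library of animal 2 scored 46.4 and the DG library of animal 35 scored 56, and both were left out of the tests, which kept 12 BLA and 11 DG libraries. The BLA library of animal 35 was named control but had a stress entry in its treatment field. It was taken as control, and without it the number of genes of the set under an unadjusted p of 0.05 remained 0 in both BLA comparisons with control. All stress-high animals had lower numbers than all stress-low animals. The dentate granule cell marker Prox1 lay between 63.0 and 95.5 TPM (a gene's length-corrected share of all transcripts, scaled to a fixed sum) in the DG libraries tested and between 2.03 and 2.93 TPM in the BLA. The BLA marker Rspo2 did not separate the regions, as it lay between 9.04 and 14.8 TPM in the BLA and between 12.5 and 23.9 TPM in the DG.

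The TPM of a gene corrects for transcript length, so genes of 1 region could be ranked by it. Apoe, a lipid carrier made mainly by astrocytes and also by reactive microglia, had the highest level in both regions, with a median of 2819 TPM over the BLA libraries tested and 3547 TPM over those of the DG. The lysosomal protease Ctsd followed with medians of 212 and 222 TPM. In the BLA the microglial protease Ctss had a median of 208 TPM, and its range of 142 to 277 TPM held the whole Ctsd range of 181 to 230 TPM. In the DG the Ctss median was 74.0 TPM and its range, 62.4 to 93.6 TPM, lay below that of Ctsd (192 to 247 TPM). The effective lengths behind the TPM were shorter than the gene lengths by 50 bases for BLA libraries but by 259 to 274 bases for DG libraries, and levels were therefore not compared between regions.

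**Figure D1:**
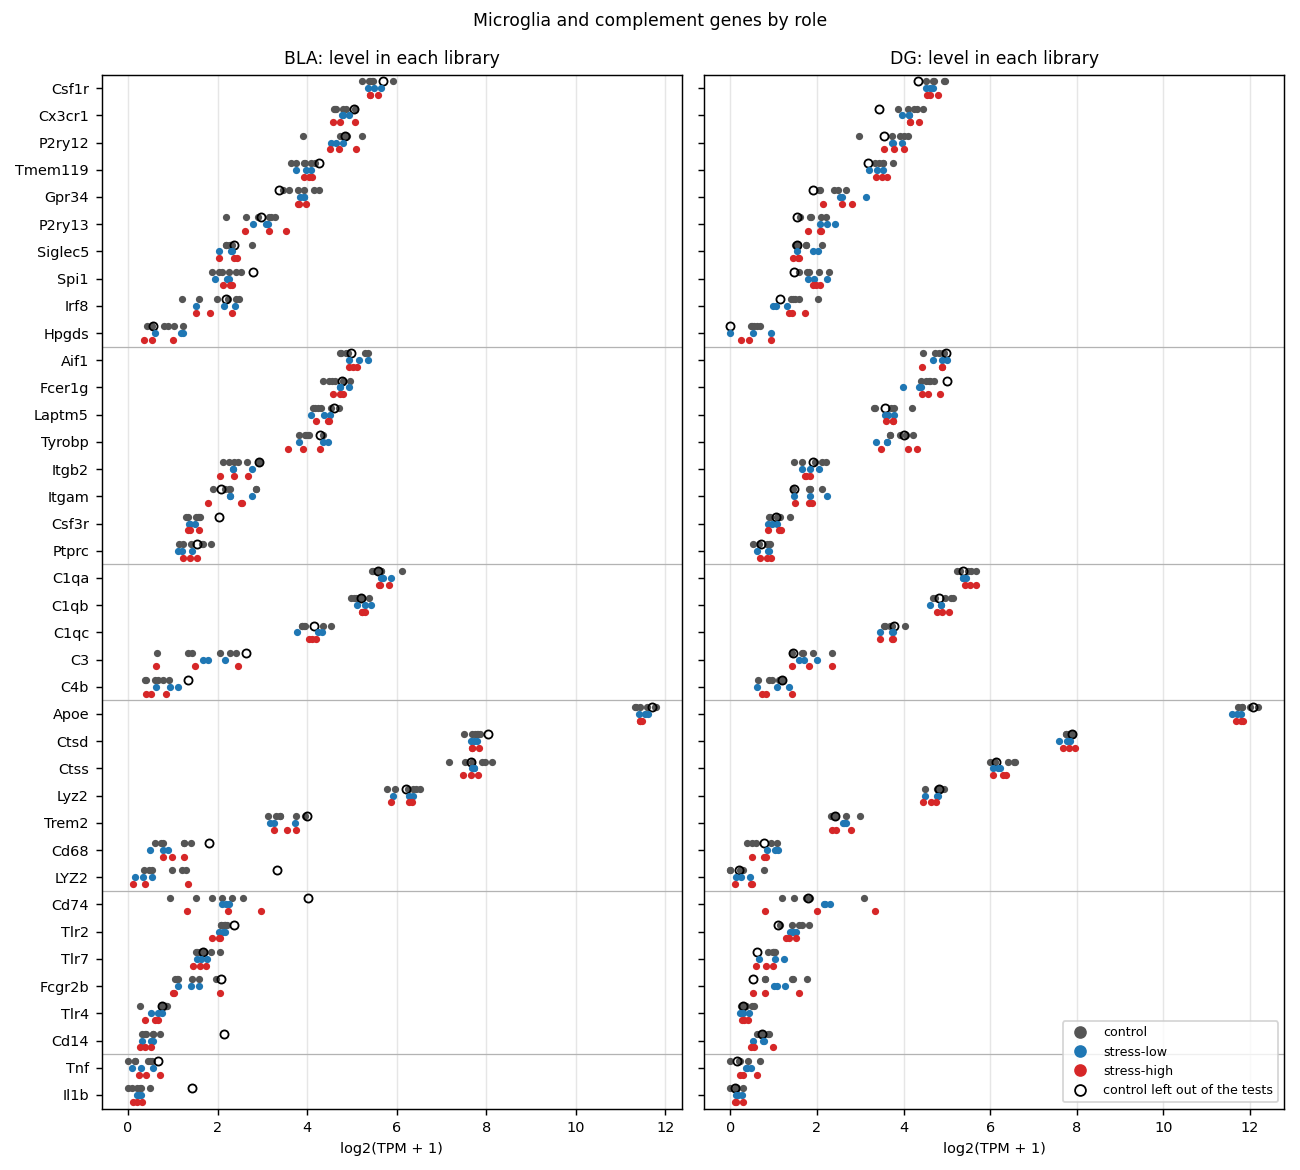
Level of each gene in each library as log2(TPM + 1), with the BLA on the left and the DG on the right, genes grouped by role and ordered by their BLA median within a role. Filled points are the libraries tested (gray control, blue stress-low, red stress-high) and open circles are the control left out in each region. Apoe stood highest at medians of 2819 and 3547 TPM, and in the BLA the open circle lay above all other libraries for 15 of 38 identifiers, and of genes whose mean TPM was 1 or more it did so for 10 of 30 identifiers and for 35.5% of all genes.

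Among the homeostatic receptors and regulators, Csf1r was highest in the BLA with a median of 42.2 TPM, followed by the fractalkine receptor Cx3cr1 at 26.7 TPM and the ADP receptor P2ry12 at 26.2 TPM. The ranges of Cx3cr1 (22.8 to 32.5 TPM) and P2ry12 (14.1 to 36.3 TPM) overlapped, so these neighbors did not differ beyond their spread. The microglial surface protein Tmem119 had a median of 14.5 TPM and the orphan receptor Gpr34 one of 13.7 TPM. In the DG the order was Csf1r (24.6 TPM), Cx3cr1 (16.6 TPM), P2ry12 (12.7 TPM) and Tmem119 (10.3 TPM). The transcription factors Spi1, which encodes PU.1, and Irf8 were low, with medians of 3.71 and 3.19 TPM in the BLA and 2.83 and 1.69 TPM in the DG. Thus the defining microglial markers were present in every library of both regions. The summed level of Aif1, Itgam, Cx3cr1, P2ry12, Csf1r and Tmem119 lay between 133 and 184 TPM in the BLA and between 82.1 and 110 TPM in the DG.

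Of the myeloid signaling genes, the calcium-binding protein Aif1, known as Iba1, had medians of 30.8 TPM (BLA) and 28.4 TPM (DG), and the immunoreceptor adaptor Fcer1g had medians of 25.6 and 21.8 TPM. The adaptor Tyrobp, the partner of the lipid receptor Trem2, had a median of 15.0 TPM in the BLA and 11.9 TPM in the DG. The integrin chains Itgam and Itgb2, which pair as complement receptor 3, had medians of 3.86 and 4.18 TPM in the BLA and 2.59 and 2.56 TPM in the DG. The pan-leukocyte phosphatase Ptprc was lower still, at 1.64 and 0.81 TPM.

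The cytokines stood at or near the bottom of the set, and the innate receptors lay in its lower part together with genes of other roles. By median TPM, Cd74 ranked 23 of 38 in the BLA and 19 in the DG, and the other innate receptors ranked 24 to 36 in the BLA and 25 to 36 in the DG. Tlr2 had a BLA median of 3.30 TPM and Tlr4, the endotoxin receptor, one of 0.64 TPM, whereas the endotoxin co-receptor Cd14 had 0.38 TPM there. The cytokines Il1b and Tnf had medians of 0.17 and 0.27 TPM in the BLA and 0.10 and 0.28 TPM in the DG. Over the libraries tested, Il1b had at most 5 expected counts in the BLA and 3 in the DG, and Tnf at most 17 and 8. Both failed the count filter in both regions, so their differences between groups were not tested. The BLA control left out had 24 expected counts of Il1b. Cd14 in the BLA and LYZ2 and the prostaglandin D synthase Hpgds in the DG also failed it, so 35 identifiers were tested for the BLA and 34 for the DG.

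The complement members divided into an abundant C1q group and a sparse C3 and C4b pair. C1qa, C1qb and C1qc had medians of 49.2, 36.5 and 15.9 TPM in the BLA and 42.1, 28.0 and 12.3 TPM in the DG. The central component C3 had 2.30 and 2.26 TPM, and C4b, which forms the classical convertase with C2, had 0.57 and 0.94 TPM. The sparse genes varied more between animals. The SD within groups was 59.7% of the mean for C3 and 42.7% for C4b in the BLA, against 12.9% for C1qa and 9.11% for C1qb.

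Promoters were available for 27 of the 37 names, from the RefSeq annotation of build GRCr8 (250 bases before to 50 bases after the transcription start). Those not matched were Aif1, C1qc, Fcer1g, Fcgr2b, Hpgds, Itgb2, P2ry12, Spi1, Tmem119 and Tyrobp. PU.1, the product of the member Spi1, is an ETS-family factor that binds purine-rich sites with a GGAA core, and 3 such letter strings were searched on both strands. GAGGAA was found in the promoters of 19 of 27 members (70.4%) and in 27.6% of all 33469 promoters. The longer GAGGAAG, each copy of which also holds a GAGGAA, was found for 11 members (40.7%) and in 12.4% of all promoters. GGAAGT was found for 12 members (44.4%) and in 22.6% of all promoters, and it can overlap both other strings. A member was counted if any of its promoters held the string, and Apoe had several promoters, whereas the shares of all promoters count each promoter by itself. The percentages thus differ in unit. These are matches of letters, no binding was measured, and base composition was not matched. The promoters of the C1q genes and of Ctss are shown because these were the most abundant complement genes and the most abundant member with all 3 strings, and capitals mark every match, forward or reverse. C1qa (chr5:154419884-154420183, minus strand) and C1qb (chr5:154407778-154408077, minus strand) lie close together on chromosome 5, and Ctss lies at chr2:185775146-185775445, plus strand.
C1qa: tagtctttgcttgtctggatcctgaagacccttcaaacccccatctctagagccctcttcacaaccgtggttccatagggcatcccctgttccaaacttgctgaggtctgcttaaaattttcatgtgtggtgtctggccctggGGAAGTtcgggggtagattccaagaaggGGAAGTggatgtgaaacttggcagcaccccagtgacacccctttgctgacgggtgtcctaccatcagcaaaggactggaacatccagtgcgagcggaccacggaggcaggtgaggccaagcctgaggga
C1qb: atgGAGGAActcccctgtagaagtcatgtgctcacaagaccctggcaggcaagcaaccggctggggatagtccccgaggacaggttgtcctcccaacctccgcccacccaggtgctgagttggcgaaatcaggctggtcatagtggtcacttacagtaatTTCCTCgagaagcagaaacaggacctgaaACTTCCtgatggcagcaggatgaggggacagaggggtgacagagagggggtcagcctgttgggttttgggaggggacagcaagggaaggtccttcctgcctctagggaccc
Ctss: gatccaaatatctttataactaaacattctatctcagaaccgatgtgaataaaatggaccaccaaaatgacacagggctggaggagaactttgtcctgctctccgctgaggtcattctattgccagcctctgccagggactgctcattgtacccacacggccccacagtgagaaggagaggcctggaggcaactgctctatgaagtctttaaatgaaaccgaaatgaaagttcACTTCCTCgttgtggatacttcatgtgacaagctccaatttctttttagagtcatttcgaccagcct
C1qa held 2 copies of GGAAGT, and neither GAGGAA nor GAGGAAG. The reverse matches in Ctss overlap in 1 run just upstream of the start.

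The first question was whether stress-exposed rats with low and high anxiety-like behavior differed in these genes. They did not differ at the threshold in either region. With edgeR's quasi-likelihood test and Benjamini-Hochberg adjustment over all genes, 0 of 35 identifiers in the BLA and 0 of 34 in the DG were under an adjusted p of 0.05, and 0% of all 15230 BLA and 14080 DG genes were. At an unadjusted p of 0.05 the counts were 0 in the BLA, where 1.98% of all genes were, and 1 in the DG, where 3.12% were. DESeq2 gave 0 under an adjusted p of 0.05, and 0 in both regions under an unadjusted one. The median log2 fold change of stress-high over stress-low was 0.02 in both regions, and that of all genes was 0.00 to 2 decimals.

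The genes nearest to a difference between the stress groups in the DG were signaling adaptors and Irf8. Fcer1g, the common gamma chain of activating immune receptors, had 20.1, 19.6 and 14.8 TPM in the 3 stress-low libraries and 20.4, 22.6 and 27.4 TPM in the 3 stress-high libraries. The groups did not overlap, but the lowest stress-high value lay just above the highest stress-low value. The log2 fold change of stress-high over stress-low was 0.37 (SE 0.17, 95% confidence interval 0.01 to 0.74, unadjusted p = 0.0468, adjusted p = 1 by edgeR). The lowest value came from animal 34, whose library had the smallest total of the DG, and without it the change was 0.25 with an unadjusted p of 0.189 by edgeR. Without the stress-high library of animal 20 the change was 0.26, and with the animal number above 20 as a covariate it was 0.25.

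Irf8 and Tyrobp, named here after their values were seen, had the same direction between the stress groups. Irf8, a transcription factor of the myeloid lineage, had 0.97, 1.46 and 1.06 TPM in the stress-low libraries of the DG and 1.57, 1.69 and 2.31 TPM in the stress-high ones. These groups did not overlap either, and the log2 fold change was 0.68 (SE 0.33, unadjusted p = 0.0567 by edgeR). Tyrobp had 11.3, 11.3 and 9.35 TPM in stress-low and 10.1, 16.1 and 18.7 TPM in stress-high libraries, with overlap and a log2 fold change of 0.51 (SE 0.26, unadjusted p = 0.0704 by edgeR). In all, 3 of the 34 identifiers tested in the DG were higher in every stress-high library than in any stress-low one (Cx3cr1, Fcer1g and Irf8) and 1 was lower (Cd68), and 8.69% of all genes tested were apart in this way. An exact permutation test of 3 against 3 libraries cannot give less than 0.1. For these 4 genes it gave that value.

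In the BLA, C4b was the gene closest to a difference between the stress groups. It had 0.92, 1.18 and 0.55 TPM in the stress-low libraries and 0.42, 0.31 and 0.79 TPM in the stress-high ones, and the groups overlapped. The log2 fold change of stress-high over stress-low was -0.78 (SE 0.40, 95% confidence interval -1.64 to 0.08, unadjusted p = 0.0707, adjusted p = 1 by edgeR), and with the animal number above 20 as a covariate it was -0.14. No identifier had separate groups in the BLA, where 5.89% of all genes did. The 3 C1q chains were close to equal, at log2 fold changes of -0.02 (C1qa, 95% confidence interval -0.28 to 0.25), 0.02 (C1qb, -0.23 to 0.27) and 0.02 (C1qc, -0.38 to 0.43).

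**Figure D2:**
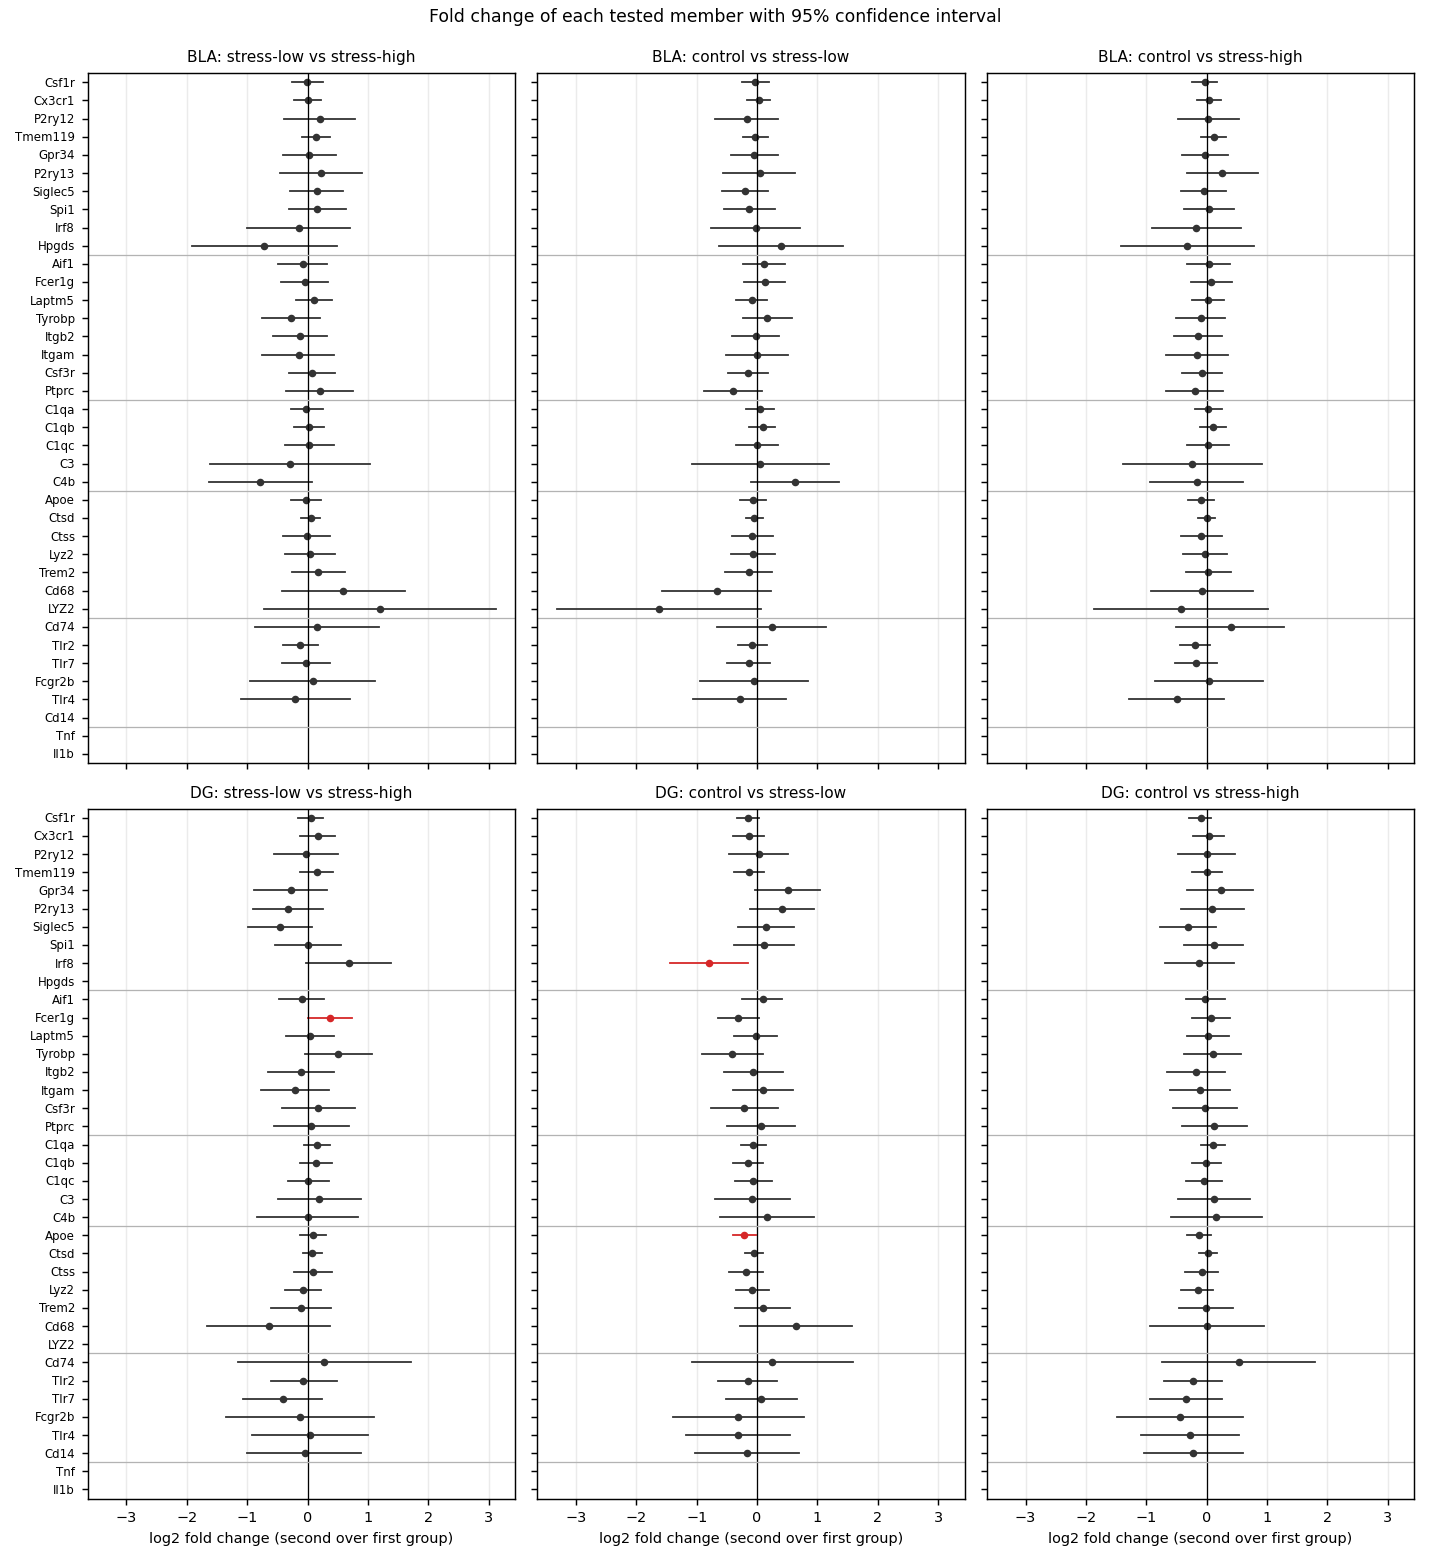
Log2 fold change of each tested gene (point) with its 95% confidence interval (line) from edgeR, with the BLA above and the DG below, and 1 column per comparison. The second group named is divided by the first, red marks an unadjusted p under 0.05, and genes without a point failed the count filter. Red appears only for Fcer1g, Irf8 and Apoe in the DG, and no adjusted p was under 0.05.

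The next question was how stress-low rats differed from controls. No identifier was under an adjusted p of 0.05 in either region by edgeR or DESeq2, and 0% of all genes were by edgeR. In the BLA 0 of 35 identifiers were under an unadjusted p of 0.05 (2.75% of all genes) by edgeR, and 1 by DESeq2. In the DG 2 of 34 were (6.9% of all genes), Irf8 and Apoe, both lower in stress-low rats, and DESeq2 also gave 2. The share of these identifiers in the DG was near that of all genes. The median log2 fold change over the identifiers tested was -0.05 for the BLA and -0.06 for the DG.

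Irf8 in the DG lay between 1.64 and 3.05 TPM in the 5 controls (median 1.81 TPM), with 1.81, 1.64, 2.02, 3.05 and 1.71 TPM. All 3 stress-low libraries, at 0.97, 1.46 and 1.06 TPM, lay below every control, and the stress-high libraries overlapped the controls. The means were 2.05 ± 0.579 TPM (SD, n = 5) and 1.16 ± 0.261 TPM (SD, n = 3), and the log2 fold change of stress-low over control was -0.80 (SE 0.30, 95% confidence interval -1.45 to -0.15, unadjusted p = 0.0191, adjusted p = 0.718 by edgeR). The exact two-sided permutation p was 0.0357. These levels rest on 8 to 14 expected counts in the stress-low libraries and 16 to 33 in the controls. Without the stress-low library of animal 22 the unadjusted p by edgeR was 0.0806, and without that of animal 34 it was 0.0580. The control left out of the test had 1.23 TPM, inside the stress-low range, and with it the change was -0.73.

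Apoe in the DG was 4113, 3609, 4648, 3600 and 3376 TPM in the controls and 3534, 3317 and 3087 TPM in the stress-low libraries. The groups overlapped, with the highest stress-low value above the lowest control. The means were 3869 ± 512 TPM (SD, n = 5) and 3313 ± 223 TPM (SD, n = 3), and the log2 fold change was -0.21 (SE 0.09, 95% confidence interval -0.40 to -0.02, unadjusted p = 0.0330, adjusted p = 0.718 by edgeR). With the animal number above 20 as a covariate the change was -0.05, and without the stress-low library of animal 34 it was -0.16 with an unadjusted p of 0.15 by edgeR. Leaving out any of the controls of animals 2 and 17 and the stress-low library of animal 33 also took the unadjusted p above 0.05, to at most 0.0773 by edgeR. All 8 astrocyte markers were above 0 in every library, and their summed level lay between 2610 and 3630 TPM in the DG controls, 2480 and 2830 TPM in stress-low and 2680 and 2760 TPM in stress-high rats. Their part in the Apoe values was not tested.

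Tyrobp in the DG, named after its values were seen, also separated. The controls had 15.6, 11.9, 14.2, 17.5 and 11.9 TPM, above all stress-low libraries, with 9.35 TPM as the lowest and 11.3 TPM as the highest stress-low value. Its log2 fold change was -0.41 (SE 0.24, unadjusted p = 0.109 by edgeR) and the exact permutation p was 0.0357. Thus 2 identifiers, Irf8 and Tyrobp, had separate groups in this comparison in the DG and both were lower in stress-low rats, and 3.71% of all genes tested had separate groups. The same stress-low libraries entered the comparison with stress-high rats, so these are not separate observations. The summed level of the 6 microglial identity genes overlapped, at 85.0 to 110 TPM in the controls and 84 to 96.7 TPM in the stress-low libraries.

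In the BLA the smallest p between control and stress-low belonged to LYZ2, the sparse second lysozyme identifier. The controls had 0.45, 0.28, 0.38, 1.46, 0.97 and 1.31 TPM and the stress-low libraries 0.45, 0.26 and 0.11 TPM, so the groups overlapped. The log2 fold change was -1.63 (SE 0.79, unadjusted p = 0.0571, adjusted p = 1 by edgeR), from 1.65 to 5.29 expected counts in the stress-low libraries. No identifier had separate groups here, where 1.39% of all genes did. All 5 complement members had estimates at or above 0, from 0.00 for C1qc to 0.63 for C4b (SE 0.34, unadjusted p = 0.0859 by edgeR), and none passed the test. Of all genes tested there, 7484 of 15230 had a positive estimate. In the DG 1 of the 5 complement members had a positive estimate in this comparison.

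**Figure D3:**
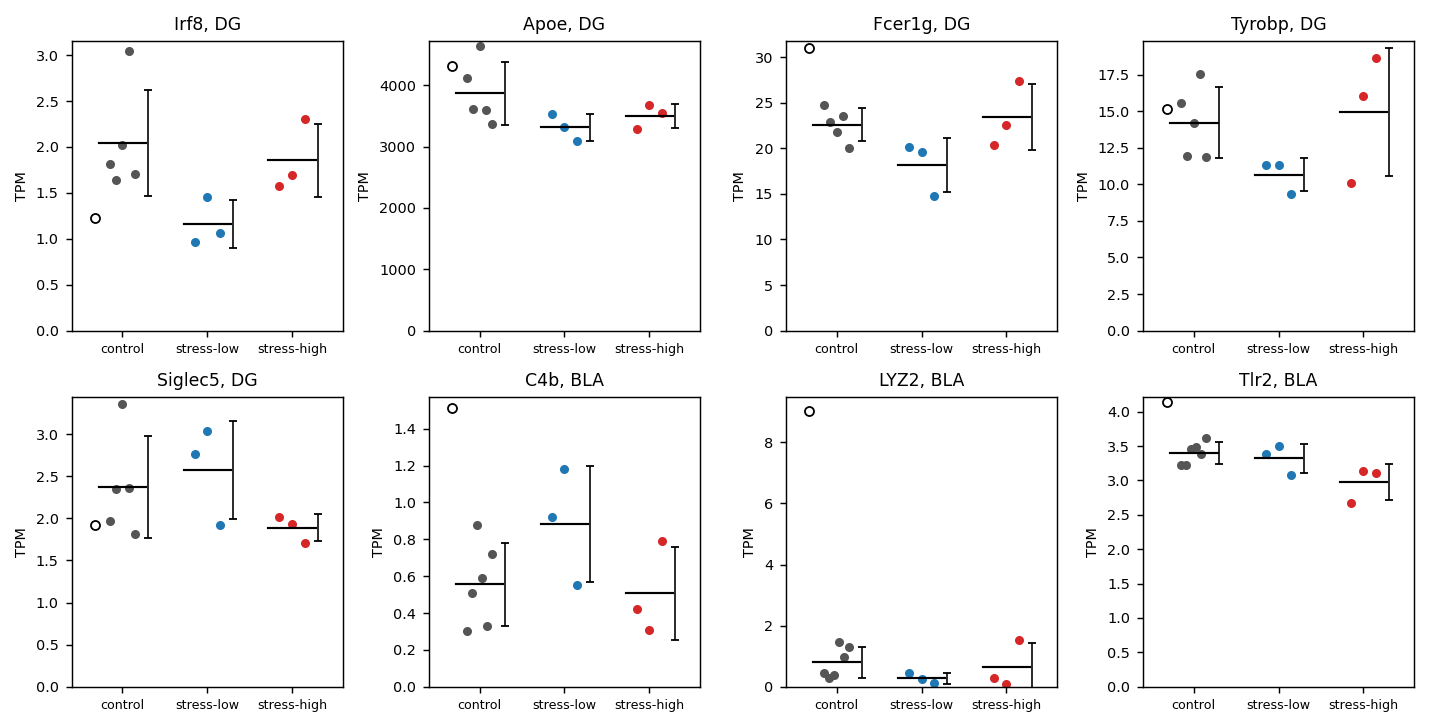
TPM of 8 genes in each library, in 1 region each, by group. Points are libraries, the horizontal line is the mean, the bar at its right is the SD, and the open circle is the control left out of the tests and of the mean. Irf8 in the DG had 3 stress-low libraries between 0.97 and 1.46 TPM under all 5 controls tested, and LYZ2 in the BLA reached 9.03 TPM in the control left out.

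The last question was how stress-high rats differed from controls. By edgeR 0 of 35 identifiers in the BLA and 0 of 34 in the DG were under an adjusted p of 0.05 (0% of all genes in both), and 0 and 0 were under an unadjusted one, against 2.57% and 2.19% of all genes. DESeq2 gave 0 under both thresholds in both regions. The median log2 fold change was -0.03 for the BLA and -0.01 for the DG. Whether stress-high or stress-low rats were closer to controls was not tested.

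Tlr2, a receptor for microbial lipoproteins, had the smallest p in the BLA. It lay between 3.22 and 3.62 TPM in the 6 controls (median 3.43 TPM), whereas the stress-high libraries had 2.67, 3.14 and 3.11 TPM. Every stress-high value was below every control, by a narrow margin. The log2 fold change was -0.19 (SE 0.12, 95% confidence interval -0.44 to 0.06, unadjusted p = 0.119, adjusted p = 1 by edgeR), and the exact permutation p was 0.0238. Tlr2 was the 1 identifier with separate groups in this comparison, which 0.978% of all genes had.

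In the DG the sialic acid receptor Siglec5 had the smallest p between control and stress-high. The controls had 1.97, 2.35, 3.36, 2.36 and 1.82 TPM and the stress-high libraries 2.02, 1.93 and 1.71 TPM, with overlap. Its log2 fold change was -0.31 (SE 0.22, unadjusted p = 0.184, adjusted p = 1 by edgeR). Without the control of animal 17 it was -0.16. No identifier had separate groups in this comparison in the DG, where 1.46% of all genes did.

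Complement and antigen-presentation genes showed how large the spread within a group was. C1qa in the DG was 40.6, 40.4 and 42.1 TPM in the stress-low libraries and 41.6, 45.5 and 49.6 TPM in the stress-high ones, and controls ran from 36.3 to 50.4 TPM around both. The log2 fold change of C1qa in stress-high over stress-low rats was 0.16 (SE 0.10, 95% confidence interval -0.06 to 0.38, unadjusted p = 0.141 by edgeR), and that of C1qb was 0.14 (SE 0.13). C3 in the BLA was 3.49, 2.18 and 2.42 TPM in stress-low and 0.55, 1.80 and 4.47 TPM in stress-high libraries, so that stress-high animals held both the lowest and the highest value. Cd74, the invariant chain of antigen presentation, had the same form when the stress groups alone were compared. It was 3.55, 3.93 and 3.49 TPM in the stress-low libraries of the DG and 0.73, 2.98 and 9.15 TPM in the stress-high ones, and in the BLA it was 3.80, 3.54 and 3.27 TPM against 1.49, 3.68 and 6.85 TPM. The controls also spread widely for Cd74, from 1.28 to 7.55 TPM in the DG and from 0.90 to 4.96 TPM in the BLA. In the BLA a control thus had the lowest value of all libraries tested. Within the stress-high group, animal 7 had the lowest and animal 20 the highest Cd74 value in both regions.

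The widths of the intervals state what these comparisons could see. Between stress-low and stress-high, the 95% confidence interval of the log2 fold change lay within 1 in either direction for 26 of 35 identifiers in the BLA and 26 of 34 in the DG, and within 0.5 for 17 and 12. Between control and stress-high the interval lay within 1 for 30 identifiers in each region. C1qa, C1qb, Csf1r, Cx3cr1, Tmem119 and Ctsd were among the precise genes, whereas C3, Cd68, Cd74 and Fcgr2b were among the imprecise ones. For these 4 genes the interval between stress-low and stress-high reached beyond 1 in at least 1 region.

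Differences between the regions were tested directly as the DG change minus the BLA change. This fit had no term for the animal, although 9 animals had a tested library in both regions. No identifier was under an adjusted p of 0.05 in any of the 3 comparisons by edgeR, and 0% of all 15453 genes were. For stress-high over stress-low 1 of 36 identifiers was under an unadjusted p of 0.05, against 2% of all genes. It was Tyrobp, with a change of 0.51 in the DG, -0.28 in the BLA and a difference of 0.80 (SE 0.34, unadjusted p = 0.0269, adjusted p = 1 by edgeR). For stress-low over control 1 identifier was, against 3.21% of all genes, the lysosomal marker Cd68, with a change of 0.65 in the DG, -0.67 in the BLA and a difference of 1.3 (SE 0.61, unadjusted p = 0.0431, adjusted p = 1 by edgeR). Cd68 had 3 to 10 expected counts in the DG libraries tested and 4 to 20 in those of the BLA. With the animal as a block in limma voom, the difference was 0.75 for Tyrobp (unadjusted p = 0.0362) and 1.33 for Cd68 (unadjusted p = 0.0297). For stress-high over control 0 identifiers were, against 1.84% of all genes.

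Homeostatic genes were set against activation genes by taking, for each library, the mean log2(TPM + 1) of 7 homeostatic identifiers (Cx3cr1, P2ry12, P2ry13, Tmem119, Csf1r, Gpr34 and Hpgds) minus that of 15 activation identifiers (Trem2, Tyrobp, Apoe, Ctsd, Lyz2, LYZ2, Cd68, Cd74, Cd14, Tlr2, Fcgr2b, C3, C4b, Il1b and Tnf). This split differs from the role groups. Irf8, Spi1 and Siglec5, homeostatic by role, were not in it, and Tyrobp, a myeloid signaling gene by role, counted as activation. Identifiers that failed the count filter were kept with equal weight. They were Il1b, Tnf and Cd14 in the BLA, and Il1b, Tnf, LYZ2 and Hpgds in the DG. All of these were under 1 TPM in the libraries tested, where log2(TPM + 1) varies little. In the BLA the difference was 0.88 ± 0.10 in controls (SD, n = 6), 0.93 ± 0.11 in stress-low (SD, n = 3) and 0.93 ± 0.26 in stress-high rats (SD, n = 3). In the DG it was 0.30 ± 0.17 (SD, n = 5), 0.36 ± 0.11 (SD, n = 3) and 0.34 ± 0.25 (SD, n = 3). The group means thus lay within the spread between animals in both regions. Stress-high rats spread the most, since animal 7 had the highest value of each region (BLA 1.23, DG 0.63), while animal 19 had 0.78 (BLA) and 0.23 (DG) and animal 20 had 0.79 (BLA) and 0.17 (DG). The controls left out had the lowest value of their region, 0.09 in the BLA (animal 2) and -0.06 in the DG (animal 35).

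**Figure D4:**
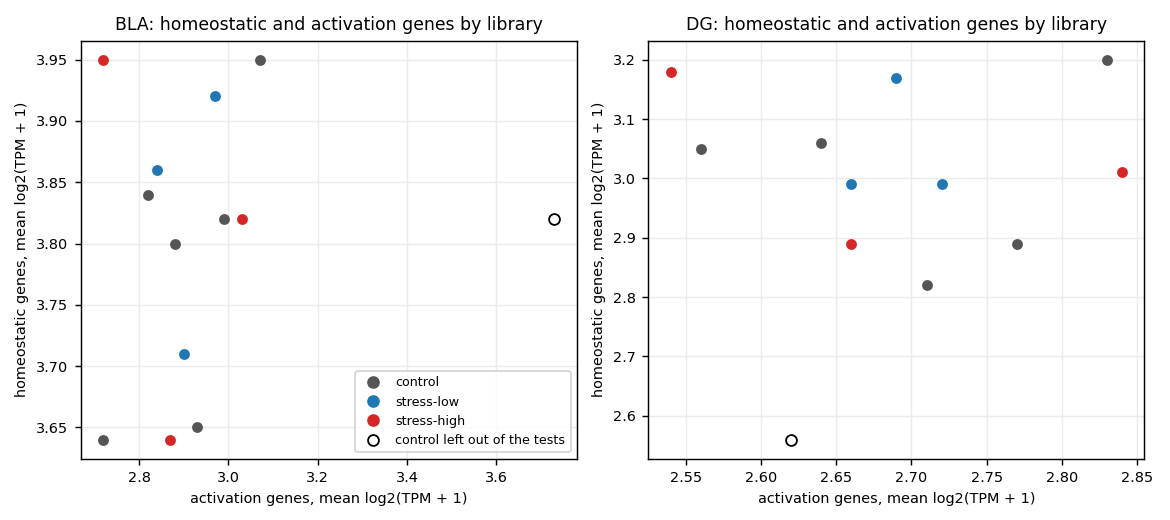
Mean log2(TPM + 1) of the 7 homeostatic identifiers against that of the 15 activation identifiers in each library, with the BLA on the left and the DG on the right. Colors mark the groups, and the open circle is the control left out. In the BLA the open circle had an activation mean of 3.73, against 2.72 to 3.07 in the other libraries, and in the DG it had the lowest homeostatic mean, 2.56.

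By role, the 3 calls at an unadjusted p of 0.05 in the 6 comparisons fell in the DG, 1 of 9 homeostatic identifiers (Irf8) and 1 of 6 lysosomal and lipid identifiers (Apoe) between control and stress-low, where 6.9% of all genes were called, and 1 of 8 myeloid signaling identifiers (Fcer1g) between the stress groups, where 3.12% were. The 5 complement identifiers and the 5 (BLA) or 6 (DG) innate receptors tested had 0 calls, where 1.98% to 6.9% of all genes were called, and groups of this size do not tell a role apart from that share. The medians of the role groups were small, with the largest in size at -0.25, that of the innate receptors between control and stress-high in the DG. The median of all genes tested was 0.00 in every comparison.

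Other complement genes were read as well, from 31 identifiers of components, receptors and regulators, of which 24 were tested in the BLA and 21 in the DG. No adjusted p was under 0.05 by edgeR. Between control and stress-low in the DG 2 were higher and 1 lower at an unadjusted p of 0.05: the C1 inhibitor Serping1 (log2 fold change 0.58), the terminal complex inhibitor Cd59 (0.19) and the C1 protease C1s (-0.32). These were 3 of the 21 tested there, against 6.9% of all genes, and whether the list exceeded that share was not tested. C1s was 4.45 ± 0.650 TPM in controls (SD, n = 5) and 3.51 ± 0.0503 TPM in stress-low rats (SD, n = 3), and 4.55 ± 0.265 TPM in stress-high rats (SD, n = 3), 0.38 above stress-low on the log2 scale. The same stress-low libraries entered both C1s comparisons. In the BLA 2 of the 24 tested, C2 (0.28) and Masp1 (-0.31), differed between control and stress-high at that threshold, against 2.57% of all genes.

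A list of 39 other microglia-enriched identifiers, all tested in the BLA and 35 of them in the DG, had a median log2 fold change of stress-low over control of 0.02 in the BLA and -0.11 in the DG. In the DG 3 of the 35 were under an unadjusted p of 0.05, all lower in stress-low rats than in controls, against 6.9% of all genes. Abi3 (-0.56) and the adaptor Fyb (-0.75) were among them, with an adjusted p of 0.718 for each by edgeR. Abi3 was 2.81 ± 0.548 TPM in controls (SD, n = 5) and 1.91 ± 0.352 TPM in stress-low rats (SD, n = 3), without overlap, and 3.71% of all genes tested had separate groups there. In the BLA the NADPH oxidase subunit Cybb was lower in stress-high rats than in stress-low rats (-1.0) and than in controls (-0.84) at that threshold. There 1 and 2 of the 39 identifiers were under it, against 1.98% and 2.57% of all genes, and the same stress-high libraries entered both comparisons. Its level was low, at 0.260 ± 0.115 TPM in stress-high (SD, n = 3), 0.570 ± 0.132 TPM in stress-low (SD, n = 3) and 0.497 ± 0.131 TPM in control rats (SD, n = 6). The oxidase organizer Ncf1 had the opposite sign between control and stress-high, at 0.42. In the DG Rasal3 had -0.53 between the stress groups, 1 of 35 identifiers called there, against 3.12% of all genes.

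Ligands and brakes of microglia were next, followed by disease-associated and inflammatory genes, and which cells made these transcripts was not measured. Cd200, a neuronal ligand that restrains myeloid cells, was 62.1 ± 3.34 TPM in DG controls (SD, n = 5), 69.7 ± 2.17 TPM in stress-low (SD, n = 3) and 61.0 ± 6.45 TPM in stress-high rats (SD, n = 3). Stress-low libraries lay above all controls and all stress-high libraries, with log2 fold changes of 0.18 for stress-low over control (unadjusted p = 0.0353 by edgeR) and -0.19 for stress-high over stress-low (unadjusted p = 0.0438 by edgeR). The same 3 stress-low libraries entered both comparisons. Of all genes tested, 3.71% and 8.69% had separate groups in them, and 6.9% and 3.12% were under an unadjusted p of 0.05. Tgfb1, a cytokine needed for the microglial program, was lower in stress-low rats than in controls in the DG (-0.48) and lower in stress-high than in stress-low rats in the BLA (-0.31), again without an adjusted p under 0.05. In the DG 2 of 13 identifiers of this list were called between control and stress-low and 1 between the stress groups. In the BLA 1 of 13 was called between the stress groups, where 1.98% of all genes were. Of the disease-associated microglial genes, 1 was lower between control and stress-low in each region, Axl in the BLA (-0.19) and Cd63 in the DG (-0.24). At an unadjusted p of 0.05 they were 1 of 12 and 1 of 10 tested, against 2.75% and 6.9% of all genes. Of the inflammatory list, Il18 differed between the stress groups in the BLA (-0.70), and the kinase Irak4 was lower than control in the DG in stress-low (-0.42) and stress-high rats (-0.59). They were 1 of 17 tested in the BLA and 1 of 16 in each DG comparison, against 1.98%, 6.9% and 2.19% of all genes. The stress groups share their controls in these 2 DG comparisons.

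Several of these genes are also expressed by myeloid cells of the blood and the brain borders, whose markers were read in the same libraries. In the libraries tested the 5 border macrophage markers summed to 1.69 to 5.45 TPM in the BLA and 0.78 to 2.80 TPM in the DG, and the 5 neutrophil markers to 1.62 to 5.11 TPM and at most 3.58 TPM. The epithelial choroid plexus marker Ttr was at 0 in every BLA library. Of the other choroid plexus and meninges markers, Dcn was 3.04 to 7.85 TPM in the BLA libraries tested, Lum 0.96 to 7.64 TPM and Col1a1 0.96 to 7.42 TPM. Folr1 and Kl reached at most 0.24 and 0.66 TPM. The summed ranges of each list overlapped between the groups in both regions. Dcn in the DG was higher in every stress-high than in any stress-low library (log2 fold change 0.89, unadjusted p = 0.00755 by edgeR), and 8.69% of all genes tested had separate groups there. In the DG the neutrophil sum was 0.65 to 3.58 TPM in controls, 0 to 1.16 TPM in stress-low and 0 to 2.48 TPM in stress-high rats, and the median of S100a8 was 0. Among astrocyte markers, Slc1a2 was lower in stress-low rats than in controls in the BLA (-0.25, unadjusted p = 0.00187 by edgeR), and Gfap was lower in stress-high rats than in controls in the DG (-0.31, unadjusted p = 0.0414 by edgeR). Each was 1 of 8 astrocyte markers under an unadjusted p of 0.05, against 2.75% and 2.19% of all genes. The red cell globins Hbb (0.39) and Hbb-b1 (0.37) were higher in stress-high rats than in controls in the BLA at that threshold, 2 of 5 red cell markers against 2.57% of all genes. Hbb-b1 was also higher in every stress-high than in any stress-low BLA library (0.45, unadjusted p = 0.0258 by edgeR). This was 1 of 5 red cell markers, against 1.98% of all genes, and 5.89% had separate groups there. The same stress-high libraries entered both comparisons. None of these markers had an adjusted p under 0.05, and their part in the values of the microglial genes was not tested. In the BLA control left out they were 3.66 TPM for border macrophages and 11.6 TPM for neutrophils, and the part of these cells in its member values was not tested.

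The members of the set moved together from animal to animal about as much as other genes did. After group means were removed, the median correlation of log2(TPM + 1) between pairs was 0.22 in the BLA (435 pairs of 30 identifiers with a mean TPM of at least 1, n = 12 libraries), the same as the 0.22 over all gene pairs. In the DG it was 0.15 (406 pairs of 29 identifiers, n = 11 libraries), against 0.07. Of these pairs, 20% in the BLA and 18.2% in the DG reached 0.5, against 22.7% and 14.1% of all gene pairs. The complement members were the role group with the highest median, 0.42 in the BLA (6 pairs of 4 identifiers) and 0.54 in the DG (10 pairs of 5 identifiers). C1qa and C1qb correlated at 0.60 in the BLA and 0.55 in the DG, and C1qa and C1qc at 0.71 and 0.42. C1qb and Cx3cr1, a pair named after its value was seen, correlated at 0.89 in the DG. The points share a region, a library preparation and a total scaled to a fixed sum, so these values are descriptive.

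Some members kept an animal's rank in both regions. Over the 9 animals with a tested library in both, with group means removed, the correlation between BLA and DG levels was 0.98 for Lyz2, 0.92 for Ctss, 0.92 for P2ry12 and 0.88 for Apoe, and its median was 0.39 over 28 identifiers and 0.18 over 13198 genes. P2ry12 was lowest in the control of animal 32 (14.1 TPM in the BLA and 6.83 TPM in the DG) and highest in the control of animal 28 (36.3 and 16.2 TPM). Ctss was lowest in the control of animal 17 in both regions (142 and 62.4 TPM) and was high in the controls of animals 28 (252 and 92.0 TPM) and 32 (237 and 93.6 TPM). Lyz2 was low in animals 20 (57.2 and 20.8 TPM) and 28 (53.8 and 21.6 TPM), and highest in animal 32 (90.3 and 29.6 TPM). Other members did not keep such an order, such as Tlr2 at -0.69 and Irf8 at -0.12, the latter at 8 to 33 expected counts in the DG.

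**Figure D5:**
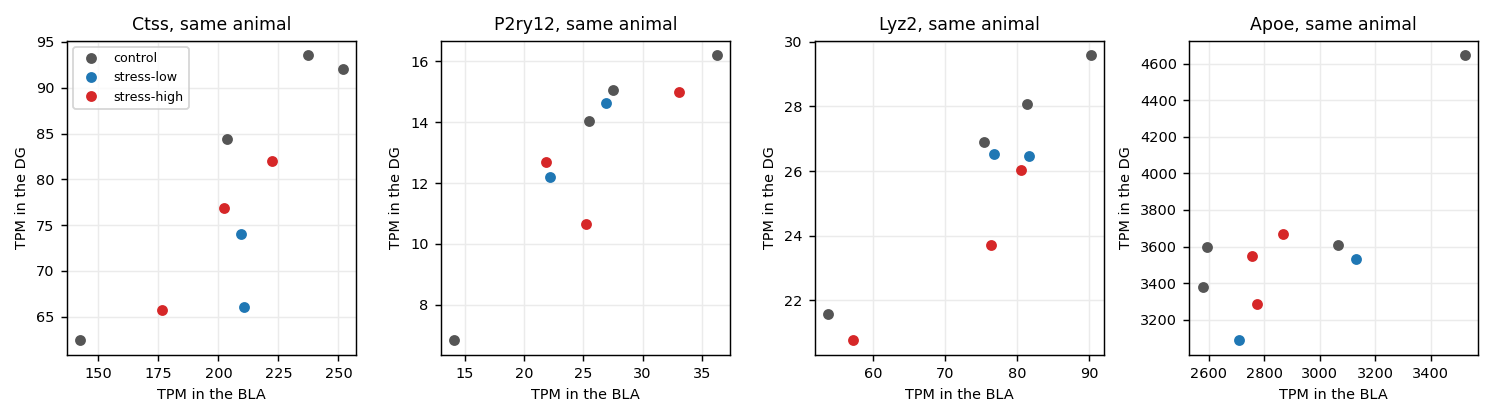
TPM of Ctss, P2ry12, Lyz2 and Apoe in the DG against the BLA for the 9 animals with a tested library in both regions, 1 point per animal, colored by group. Animals low in one region tended to be low in the other, as for P2ry12 in animal 32 at 14.1 and 6.83 TPM, and the groups intermingled.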

How the data were processed

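Bulk poly-A RNA of 25 libraries was read as gene tables. Alignment by the authors used STAR 2.6.0a on Rn5 with Ensembl gene models, and RSEM 1.3.1 gave gene-level values. The deposited expected count estimates reads per gene and can be fractional. TPM, as deposited by the authors, is corrected for length and scaled to a fixed sum. Whether counting used strand is not given in the sources used here.

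Groups came from the sample labels. The control farthest from the median on PC1 was left out per region, as outlying controls were in the study. The hippocampal sample left out by the study had been extracted again after its RNA quality was low. Expected counts were rounded and tested in edgeR 4.0.16 (quasi-likelihood, TMM, filterByExpr with a minimum count of 10, 3 group means, Benjamini-Hochberg, threshold 0.05), with BLA and DG also in 1 fit of 6 means. TPM was compared by exact two-sided permutation. The lowest p such a test allows is 0.1 with 3 libraries in each group, 0.0179 with 5 controls and 0.0119 with 6. DESeq2 1.42.0, limma 3.58.1 and other settings were alternatives. In the DG and BLA, libraries that share a title number correlated between -0.185 and 0.111, so the numbers were not taken as pairs.

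The genes and lists were chosen with earlier results of these data known. Listed genes under an unadjusted p of 0.05 or with the smallest p of a comparison were given in full, and of other lists up to 4 genes under that p were named. Some results that met this rule are not reported here.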

Additional observations from a re-analysis of the deposited data

Results flagged for a closer look

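Among the controls of each region, with the left-out control included, 76 sets of values were examined for a single animal far from the rest, where chance gives about 1 in 20. In the BLA the control of animal 2 stood above the others for Cd74 (15.3 TPM), Cd14 (3.43 TPM), LYZ2 (9.03 TPM), Csf3r (3.07 TPM) and Il1b (1.67 TPM). This library was left out of the tests, and its Cd74, Cd14, LYZ2 and Il1b values were also more than 2 times the highest value of all 12 other BLA libraries, which were 6.85, 0.64, 1.54 and 0.41 TPM. In the same library Col1a1, a collagen of fibroblasts, was 36.6 TPM, against 0.96 to 7.42 TPM, and the neutrophil marker S100a8 was 7.27 TPM, against 1.37 to 4.05 TPM, and their part in these values was not tested. Of its 30 identifiers with a mean TPM of at least 1, 10 lay above all other BLA libraries, and of all 14421 such genes 35.5% did.

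Animal 27 stood above the other BLA controls for C1qa (68.3 TPM) and Siglec5 (5.80 TPM), and animal 17 below them for Tlr4 (0.21 TPM). In the DG the control of animal 32 was high for the invariant chain Cd74 (7.55 TPM), that of animal 17 for Siglec5 (3.36 TPM), and that of animal 2 for LYZ2 (0.72 TPM).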

How the results depend on the processing

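No identifier came under an adjusted p of 0.05 under any alternative run. Counts at an unadjusted p of 0.05 were small and moved. Between the stress groups in the BLA the count of 0 became 5 with the animal number above 20 as a covariate, a fit in which the groups are told apart through controls alone, and 1 in a fit of only the 2 groups. Between control and stress-low in the BLA it became 2 with that covariate and 1 with DESeq2, all labeled libraries, no count filter or only 2 groups. Between the stress groups in the DG the count of 1 became 4 with the covariate, 2 with limma on log2(TPM + 0.1) or on all genes, and 0 with DESeq2, all labeled libraries, no filter or only 2 groups. Between control and stress-low in the DG the count of 2 became 4 with all labeled libraries and 4 with the covariate, and between control and stress-high it went from 0 to 2 with the covariate. Leaving out 1 library gave 0 to 1 (stress groups), 0 to 2 (control and stress-low) and 0 to 1 (control and stress-high) in the BLA, and 0 to 2, 1 to 4 and 0 to 1 in the DG. Without the DG control of animal 14 the count for stress-low was 4, and without animals 2, 22, 33 or 34 it was 1. A replicate block for the title number gave 3 (Irf8, Apoe and Gpr34) for stress-low against control and 1 (Siglec5, in place of Fcer1g) between the stress groups in the DG, and 0 elsewhere. The cause of these moves was not tested. The 7 genes given in full kept their direction under every alternative. For stress-low over control, Irf8 ranged from -1.0 to -0.48 and Apoe from -0.29 to -0.05 in the DG, and LYZ2 from -2.81 to -0.47 in the BLA. For stress-high over stress-low, Fcer1g ranged from 0.25 to 0.46 in the DG and C4b from -1.12 to -0.14 in the BLA. For stress-high over control, Tlr2 ranged from -0.25 to -0.13 in the BLA and Siglec5 from -0.42 to -0.16 in the DG. The group differences of homeostatic minus activation genes stayed between -0.16 and 0.17. With 3 stressed animals per group and few counts for Irf8, Cd68 and the cytokines, depth and animal number limit what can be seen, and counts cover counting error only in part.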
